A study of Mus musculus with 12 samples.

Results

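Transcripts of 10 endothelial junction and fenestra genes were followed across mouse pancreatic islets and cells sorted from islets. The genes were Plvap, Cldn5, Cdh5, Pecam1, Esam, Ocln, Tjp1, F11r, Jam2 and Jam3, chosen by name, and each had 1 row among the 22793 genes of the expression table. The 12 libraries fell into 4 groups of 3: CD31+ endothelial cells and CD11b+ macrophages sorted from dispersed islets after 1 week of doxycycline (Dox), whole islets given the same 1-week treatment (Dox islets), and whole islets with no Dox (No Dox islets). Every group came from RIP-rtTA; TetO-VEGF-A mice. In these animals the rat insulin promoter drives the Dox-dependent activator rtTA in beta cells, and Dox then switches on a VEGF-A transgene. Both transgenes were present in the No Dox group too, and none of the 12 libraries came from Dox-treated mice without them, so an effect of Dox and an effect of VEGF-A cannot be told apart. Age and sex of the mice are not given in the labels. Whether the 3 libraries of a group stand for separate mice or for pools is not stated in the labels, so p-values measure only the spread between these samples, which may be technical.

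Endothelial cells are held together by adherens junctions, built on VE-cadherin and its catenin partners, and by tight junctions, in which claudins, occludin and junctional adhesion molecules (JAMs) span the membrane and ZO proteins anchor them to the cytoskeleton. VEGF-A loosens these contacts and makes capillaries permeable. Islet capillaries are of the fenestrated kind: their walls carry pores closed by a thin diaphragm of the protein PLVAP, and hormones cross them readily. Several junction proteins are not endothelial alone, since occludin, ZO-1 and some JAMs also belong to epithelial and endocrine cells, and F11r and Jam3 products are found on blood cells.

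Values were the authors' normalized signal per gene, a linear scale with a floor of 1 whose sequencing depth is unknown. Summed signal per library was between 17635776 and 25226447, and 25.4 to 35.4% of genes stood at the floor. Endothelial and macrophage marker genes that are not among the 10 followed the labels. Summed signal of 14 endothelial markers took 1.36 to 1.57% of each endothelial library, 0.00931 to 0.0131% of each macrophage library, 0.598 to 0.713% of each Dox islet library and 0.222 to 0.312% of each No Dox islet library. Summed signal of 10 macrophage markers took 1.57 to 1.64% of macrophage libraries against 0.000840 to 0.00292% of endothelial libraries. None of these endothelial or macrophage markers was at the floor in all 3 libraries of a group. Acinar markers, 8 genes, were uneven, with 0.00615 to 1.73% of signal in macrophage libraries and 0.00114 to 0.501% in endothelial libraries. They took 0.394 to 1.27% in Dox islets and 0.160 to 0.604% in No Dox islets. The part of acinar RNA in the values below was not tested. In 2 islet libraries, Dox replicate 1 and No Dox replicate 2, the deviation of genes from the mean followed GC content (Spearman rho over 11623 genes 0.61 and 0.66), while the other 4 islet libraries lay between -0.48 and -0.32 and the 6 sorted libraries between -0.25 and 0.33.

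**Figure D1:**
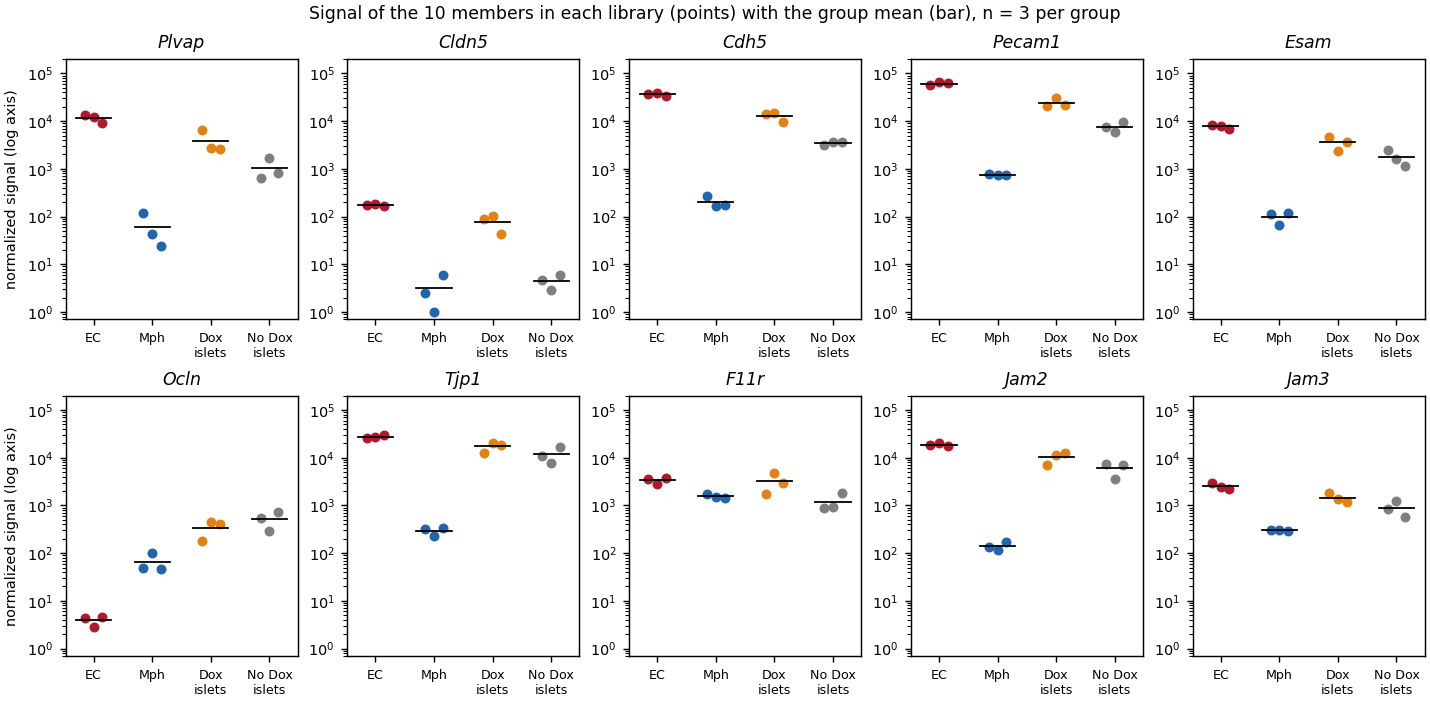
Signal of the 10 genes in each library on a log axis. Points are libraries, bars are means of 3, and the groups from left to right are endothelial cells (EC), macrophages (Mph), Dox islets and No Dox islets. Ocln is the gene with its lowest values, 2.89 to 4.69, in endothelial cells, and F11r is the gene whose macrophage values, 1458 to 1715, lie among the islet values.

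Plvap (ENSMUSG00000034845, mm9 chr8:74021653-74035668, minus strand) encodes the protein of the diaphragms of fenestrae and caveolae. Its signal was 13619, 12224 and 8946 in endothelial libraries and 117, 44.0 and 24.2 in macrophage libraries. In whole islets it was 6454, 2676 and 2624 with Dox and 651, 1699.8 and 826 without Dox. The 4 groups did not overlap and ran in the order endothelial cells, Dox islets, No Dox islets, macrophages. The highest islet value on each side, 6454 with Dox and 1699.8 without Dox, came from the library of that group that followed GC content, and Plvap has a GC content of 60.5% against a median of 48.9% over the genes tested in islets. Cldn5, also at 60.5%, had its highest islet values in other libraries, Dox replicate 2 (102) and No Dox replicate 3 (5.99). The part of GC content in these values was not tested.

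Cdh5 (ENSMUSG00000031871, chr8:106625525-106668402, plus strand) encodes VE-cadherin, the adhesion receptor of endothelial adherens junctions. Its signal was 37759, 39139 and 33523 in endothelial libraries and 272, 165 and 172 in macrophage libraries. In islets it was 13918, 14805 and 9798 with Dox and 3228, 3679 and 3615 without Dox. Every Dox islet value was above every No Dox islet value, with a gap between 9798 and 3679. Pecam1 (ENSMUSG00000020717, chr11:106515531-106611942, minus strand) encodes CD31, an adhesion receptor at endothelial borders and the antigen on which the endothelial cells were sorted, so its level in that fraction is no finding. Its signal was 57096, 64909 and 62196 in endothelial libraries and 772, 738 and 739.6 in macrophage libraries, and in islets it was 20909, 29991 and 21909 with Dox and 7368, 5900.5 and 9379 without Dox. The 4 groups did not overlap for Pecam1. Esam (ENSMUSG00000001946, chr9:37335663-37345904, plus strand) encodes an adhesion molecule of endothelial tight junctions and platelets. Its signal was 8431, 8074 and 6759 in endothelial libraries and 111, 66.0 and 118 in macrophage libraries, and in islets it was 4762, 2386 and 3682 with Dox and 2486, 1620.5 and 1162 without Dox. Here the islet groups overlapped, because Dox replicate 2 lay below No Dox replicate 1.

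Cldn5 and Ocln are the membrane components of tight junction strands among the 10. Endothelial cells had the highest mean of Cldn5 and the lowest mean of Ocln of the 4 groups. Cldn5 (ENSMUSG00000041378, chr16:18776940-18778353, plus strand, 1 exon) encodes claudin-5, the claudin best known for sealing the blood-brain barrier. Its signal was 178, 184 and 166 in endothelial libraries and 2.45, 1.00 (the floor) and 6.05 in macrophage libraries. In islets it was 91.0, 102 and 42.6 with Dox and 4.73, 2.84 and 5.99 without Dox, so the Dox islet values lay above all No Dox islet values and the No Dox islets overlapped the macrophages. Ocln (ENSMUSG00000021638, chr13:101266462-101322673, minus strand) encodes occludin, a tight junction protein of epithelia and of tightly sealed endothelia. Its signal was 4.41, 2.89 and 4.69 in endothelial libraries and 48.0, 98.7 and 46.7 in macrophage libraries. In islets it was 183, 442 and 404 with Dox and 536, 294 and 715 without Dox. Ocln was thus lowest in endothelial cells, and its islet groups overlapped. Markers of ductal and epithelial cells (10 genes, Cdh1 among them) and of beta cells (9 genes) both ran in the same order. Ductal and epithelial markers took 0.000637 to 0.00149% of signal in endothelial cells and 0.00714 to 0.00939% in macrophages (with Krt19 at the floor in all 3). They took 0.0317 to 0.0349% in Dox islets and 0.0570 to 0.0813% in No Dox islets. Beta cell markers took 0.00225 to 0.00285% in endothelial cells and 0.0130 to 0.0303% in macrophages. In Dox islets they took 0.826 to 0.890%, and in No Dox islets 1.80 to 2.98%. The part of either set of cells in the Ocln values was not tested.

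The RefSeq promoter table (build GRCm38.p6, coordinates not to be set beside the mm9 ones) held entries for 4 of the 10 genes, Cldn5, Ocln, Tjp1 and F11r. The 250 bases before the start are shown for Cldn5 (chr16:18776597-18776846, plus strand) and for the upstream of the 2 Ocln starts (chr13:100552719-100552968, minus strand), because endothelial cells were the highest group for Cldn5 and the lowest for Ocln. Capitals mark GGAA or its complement TTCC, the core bound by ETS factors, and CCAAT or its complement ATTGG.
Cldn5: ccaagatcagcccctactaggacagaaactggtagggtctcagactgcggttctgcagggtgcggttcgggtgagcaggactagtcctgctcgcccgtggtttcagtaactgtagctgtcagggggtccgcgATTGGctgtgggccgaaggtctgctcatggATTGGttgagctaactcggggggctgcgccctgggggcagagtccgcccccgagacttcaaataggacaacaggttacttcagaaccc
Ocln: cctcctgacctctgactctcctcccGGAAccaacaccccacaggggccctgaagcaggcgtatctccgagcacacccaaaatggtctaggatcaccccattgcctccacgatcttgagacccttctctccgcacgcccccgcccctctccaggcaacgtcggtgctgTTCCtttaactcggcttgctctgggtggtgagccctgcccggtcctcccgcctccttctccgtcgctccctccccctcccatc
The Cldn5 stretch held 0 GGAA cores and 2 CCAAT matches. The Ocln stretch shown held 2 GGAA cores and 0 CCAAT matches, and that of the other Ocln start, not shown, held 1 of each. Over 32851 promoters of the same length, 93.4% held at least 1 GGAA and 10.1% held at least 2 CCAAT matches, both strands counted. Each of these 3 stretches also held 1 match to GGGCGG, present at least once in 32.7% of promoters. A match is a description of letters and not of a bound site.

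Tjp1 (ENSMUSG00000030516, chr7:72441051-72516125, minus strand) encodes ZO-1, the scaffold that ties tight junction strands to actin. Its signal was 25572, 26888 and 29652 in endothelial libraries and 314, 224 and 335 in macrophage libraries. In islets it was 12446, 20449.8 and 18780.5 with Dox and 11014, 7617 and 16545 without Dox. The islet groups overlapped, and each stood far above the macrophages. Of the genes described here, Tjp1 had the highest No Dox islet level per kilobase of exon after Pecam1, 1593 ± 612 against 1749.9 ± 405 for Pecam1 (SD, n = 3 each).

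The JAM genes encode immunoglobulin-type receptors that sit near tight junctions. F11r (JAM-A; ENSMUSG00000038235, chr1:173367666-173394734, plus strand) had a signal of 3612, 2774 and 3719 in endothelial libraries and 1715, 1513 and 1458 in macrophage libraries. In islets it was 1771, 4815 and 2961 with Dox and 891, 917 and 1782 without Dox. The endothelial cells overlapped the Dox islets, and the macrophages overlapped the No Dox islets. Jam2 (JAM-B; ENSMUSG00000053062, chr16:84774368-84826173, plus strand) had 18212, 20672 and 17565 in endothelial libraries and 133, 116 and 169 in macrophage libraries, and 7063, 11343 and 12341 in Dox islets and 7513, 3631 and 7193 in No Dox islets. Jam3 (JAM-C; ENSMUSG00000031990, chr9:26904969-26963003, minus strand) had 2957, 2396 and 2184 in endothelial libraries and 312, 310.3 and 292 in macrophage libraries, and 1849.7, 1373 and 1178 in Dox islets and 827, 1238 and 578 in No Dox islets. Jam2 and Jam3 were highest in endothelial cells without overlap, and their islet groups overlapped.

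Levels of different genes were compared per kilobase of exon. In endothelial cells Pecam1 (14233 ± 919.6) and Cdh5 (9234 ± 734) led, followed by Plvap (5755 ± 1190.5), Tjp1 (3719 ± 283), Jam2 (3204 ± 279), Esam (2705 ± 307), F11r (1265 ± 194), Jam3 (990.2 ± 157), Cldn5 (124 ± 6.69) and Ocln (0.95 ± 0.23; signal per kb, SD, n = 3). The Cldn5 level was therefore low beside the adherens junction genes of the same cells. In macrophages F11r led with 587 ± 50.7, ahead of Pecam1 with 174 ± 4.42 and Jam3 with 120.1 ± 4.40, and the other 7 genes averaged at most 50.8 (Cdh5). The macrophage libraries also held 0.0137 to 0.0188% of signal in 5 platelet markers, against 0.000856 to 0.00119% in endothelial libraries, and platelets carry Pecam1, Esam, F11r and Jam3. The part of these markers in the macrophage values was not tested.

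**Figure D2:**
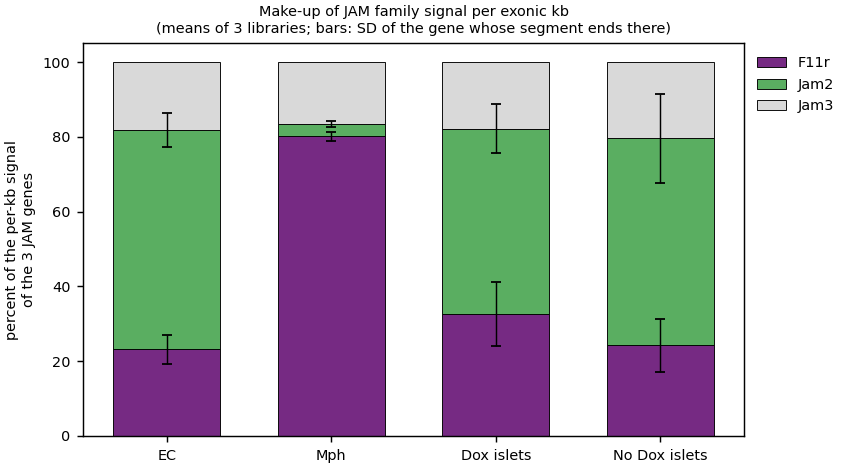
Make-up of JAM family signal, as the percent of the summed per-kilobase signal of F11r, Jam2 and Jam3, in each group. Segments are means of 3 libraries and bars are the SD of the gene whose segment ends there. F11r fills 80.2% of the macrophage bar and 23.2% of the endothelial bar.

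The JAM family was made up differently in the sorted fractions. In endothelial cells Jam2 took 58.7 ± 4.6% of the summed per-kilobase signal of the 3 JAM genes, F11r 23.2 ± 3.9% and Jam3 18.1 ± 2.3% (SD, n = 3). In macrophages F11r took 80.2 ± 1.2%, Jam3 16.5 ± 0.83% and Jam2 3.28 ± 0.77%. The F11r share ran between 18.9 and 26.6% in endothelial libraries and between 79.2 and 81.6% in macrophage libraries, with no overlap. In islets F11r took 32.7 ± 8.6% with Dox and 24.2 ± 7.2% without Dox, Jam2 took 49.5 ± 6.6% with Dox and 55.4 ± 12% without Dox, and Jam3 took 17.8 ± 8.9% with Dox and 20.4 ± 12% without Dox. These islet shares differed by no more than their spread. The mean Jam3 share lay between 16.5 and 20.4% in all 4 groups, as the plot of JAM make-up shows.

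The first comparison asked which of these transcripts differed in whole islets after 1 week of Dox. Plvap, Cdh5 and Pecam1 rose 3.70-, 3.66- and 3.21-fold in mean signal, Cldn5 stood 17.4-fold higher at a level under the filter used for testing, and Ocln was the gene with a lower mean. Tests were made with limma on log2(signal + 1) over all 10251 genes that reached a signal of 182.4 in at least 3 of the 6 libraries, with Benjamini-Hochberg adjustment and a threshold of 0.05. Of the 10 genes 9 passed the filter, and 3 of these 9 rose and the other 6 did not pass the test. The background was 8.46% of all genes tested, 6.20% higher and 2.25% lower. The median log2 difference was 1.05 over the 9 genes and 0.11 over all genes tested. Rescaling moved that median to -0.05 with median ratios and to -0.02 with quantile normalization, so that the 636 higher and 231 lower calls over all genes became 460 and 336, and 563 and 416. Removing the GC trend of each library gave 925 higher and 671 lower.

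**Figure D3:**
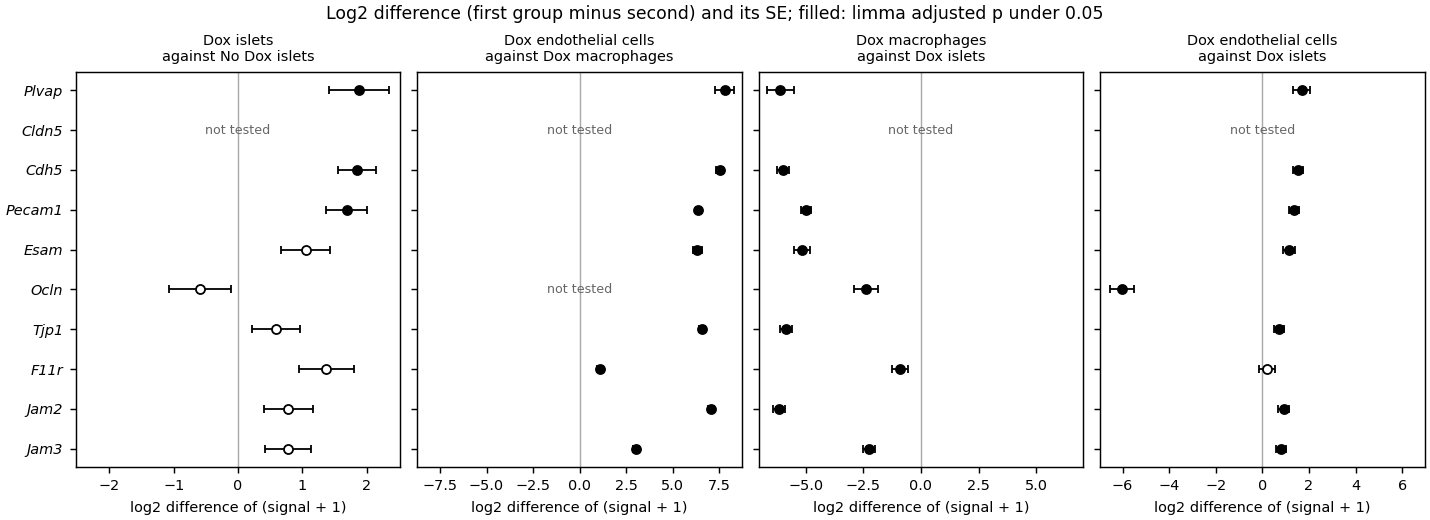
Log2 difference of (signal + 1) with its standard error (bars) in the 4 comparisons. Each panel gives the first group of its title minus the second, filled points passed the limma test at an adjusted p of 0.05, and genes under the filter are written as not tested. Plvap, Cdh5 and Pecam1 are filled in all 4 panels, and F11r is open in the islet panel and in the panel of endothelial cells against Dox islets.

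Plvap averaged 3918 ± 2196 in Dox islets and 1059 ± 562 in No Dox islets (SD, n = 3 each), a log2 difference of 1.88 (SE 0.47, limma adjusted p = 0.0401). Cdh5 averaged 12840.4 ± 2672 in Dox islets and 3507 ± 244 in No Dox islets, a log2 difference of 1.85 (SE 0.29, adjusted p = 0.0112). Pecam1 averaged 24269.8 ± 4979.5 in Dox islets and 7549 ± 1746 in No Dox islets, a log2 difference of 1.69 (SE 0.32, adjusted p = 0.0183). For these 3 genes the Dox and No Dox islet libraries did not overlap, which held for 27.9% of all genes tested. Without the 2 libraries that followed GC content the values were 1.85, 1.82 and 1.62 for Plvap, Cdh5 and Pecam1 (adjusted p = 0.0390, 0.0395 and 0.0395). The Plvap call was lost in 10 of 18 alternative settings, with an adjusted p of 0.00644 to 0.237, among them leaving out Dox replicate 1 (1.45, adjusted p = 0.0729), 2 (2.08, 0.104) or 3 (2.10, 0.0748) and No Dox replicate 1 (1.59, 0.127) or 3 (1.76, 0.0851), while Cdh5 kept its call in 15 of 18 (0.000337 to 0.0769) and Pecam1 in 13 of 18 (0.000337 to 0.106). Leaving out Dox replicate 2 put Cdh5 at 1.74 (adjusted p = 0.0769) and Pecam1 at 1.53 (adjusted p = 0.106), and Pecam1 also missed the threshold without Dox replicate 3 (1.76, adjusted p = 0.0675) or No Dox replicate 1 (1.69, adjusted p = 0.0514). Without Dox replicate 2 limma called 0 of the 9 genes, with 5 at an unadjusted p under 0.05, and without Dox replicate 3 or No Dox replicate 1 it called 1.

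Cldn5 averaged 78.7 ± 31.7 in Dox islets and 4.52 ± 1.58 in No Dox islets, which gave it no test under the filter. With the filter at a signal of 15.5 its log2 difference of 3.80 had an adjusted p of 0.0231, and with no filter 0.0747. Both filters were applied by limma to the same values, and only the number of genes tested and the pooled variance differed. At 15.5, a filter chosen after the data were seen, Cldn5 passed through the Dox libraries alone and had to differ to be tested. Among the genes that did not pass, F11r came closest with 1.37 (SE 0.43, adjusted p = 0.0817), followed by Esam with 1.05 (SE 0.38, adjusted p = 0.121). F11r passed the limma test in 2 of 18 alternative settings (adjusted p 0.0200 to 0.320) and Esam in 0 of 18. Jam2 and Jam3 both stood at 0.78 (adjusted p = 0.257 and 0.227), Tjp1 at 0.59 (adjusted p = 0.407) and Ocln at -0.59 (adjusted p = 0.543).

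Other cell types moved in the same comparison. Over all genes tested 6.20% rose and 2.25% fell. Of the 14 endothelial markers 8 rose, with a median log2 difference of 1.46. Without Dox replicate 2 limma called 0 of the 14, with 10 at an unadjusted p under 0.05, and the count was 2 without Dox replicate 3, 5 without No Dox replicate 1 and 3 without No Dox replicate 3, while the median lay between 1.32 and 1.58 in these settings. In the full comparison 6 of 8 tested macrophage markers rose, 2 of 7 mural markers rose, and 5 of 9 beta cell markers fell. Summed mural signal was 1.05 to 1.72% in Dox islets against 0.290 to 0.604% in No Dox islets, and summed beta cell signal was 0.826 to 0.890% against 1.80 to 2.98%. In whole islets, more endothelial cells and more RNA of these genes per endothelial cell cannot be told apart.

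The endothelial members were therefore also set against the 14 endothelial markers of the same library, as log2(signal + 1) minus the mean of the markers. On this scale Plvap stood at -0.79 ± 0.65 in Dox islets and -1.09 ± 0.66 in No Dox islets (SD, n = 3 each), a difference of 0.31 (SE 0.54, exact two-sided permutation p = 0.60). Cdh5 differed by 0.28 (SE 0.19, exact permutation p = 0.30), Pecam1 by 0.12 (SE 0.36, exact permutation p = 0.80) and Esam by -0.51 (SE 0.38, exact permutation p = 0.40), and in each of these the groups overlapped. The Plvap and Pecam1 differences lay on both sides of 0 when single libraries were left out, -0.06 to 0.63 and -0.12 to 0.43. Cldn5 did not overlap: it stood at -6.18, -5.95 and -6.97 in Dox islets and at -8.60, -9.24 and -7.95 in No Dox islets. Its difference of 2.23 (SE 0.48) had an exact permutation p of 0.10, the smallest that 3 against 3 libraries can give. Because the No Dox values of Cldn5 were within a few units of the floor, the added constant weighs on this difference, and with a constant of 16 it was 0.59 (exact permutation p = 0.20).

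**Figure D4:**
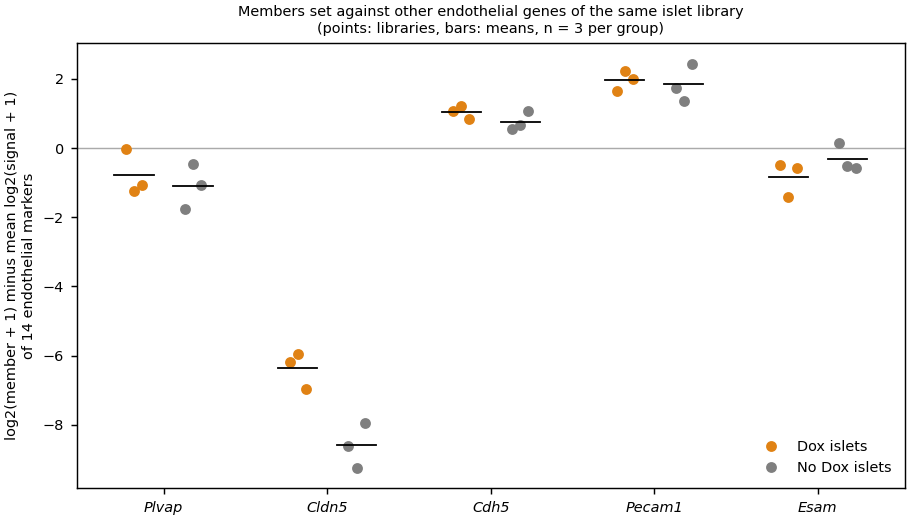
Level of 5 genes relative to 14 endothelial markers in the same islet library, as log2(signal + 1) of the gene minus the mean of the markers. Points are libraries, bars are means of 3, with Dox islets left of No Dox islets. Cldn5 is the gene whose groups lie apart, -6.97 to -5.95 with Dox and -9.24 to -7.95 without Dox.

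The second comparison asked in which sorted fraction each transcript was carried, and set endothelial cells against macrophages. All 8 genes that passed the filter were higher in endothelial cells, with log2 differences between 1.10 and 7.80, and Ocln was the gene with the lower mean. In this comparison 65.4% of 10179 genes were called, 36.0% higher and 29.4% lower, and 3 of the 8 (Plvap, Esam and Jam2) passed the filter through the endothelial libraries alone and had to differ to be tested, so the count is given as a description. Plvap averaged 11596 ± 2399 in endothelial cells and 61.7 ± 48.8 in macrophages (log2 difference 7.80, SE 0.50, adjusted p = 2.97e-06), and Cdh5 averaged 36807 ± 2927 and 203 ± 59.9 in the same order (7.53, SE 0.19, adjusted p = 4.48e-08). Jam2 differed by 7.08 (SE 0.16), Tjp1 by 6.57 (SE 0.16), Pecam1, the sort antigen, by 6.35 (SE 0.09) and Esam by 6.33 (SE 0.23), with limma adjusted p-values of 1.69e-07 or less. In all 8 the groups did not overlap, as in 71.5% of all genes tested. The median of the 14 endothelial markers was 7.20. Jam3 and F11r differed less, by 3.03 (SE 0.15, adjusted p = 7.94e-07) and 1.10 (SE 0.14, adjusted p = 0.000186), or 8.25- and 2.16-fold in mean signal. For the 4 that neither passed through 1 group nor served as the sort antigen (Cdh5, Tjp1, F11r and Jam3), the adjusted p stayed under 0.05 in 16 of 16 alternative settings.

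Cldn5 and Ocln, both under the filter, differed in opposite directions between the fractions. Cldn5 averaged 176 ± 9.46 in endothelial cells and 3.17 ± 2.60 in macrophages, and Ocln averaged 4.0 ± 0.97 in endothelial cells and 64.5 ± 29.7 in macrophages. With the filter at 15.5 the log2 differences were 5.60 for Cldn5 (SE 0.52, limma adjusted p = 3.50e-05) and -3.64 for Ocln (SE 0.47, adjusted p = 0.000234), and with no filter the adjusted p-values were 0.00178 and 0.00322. At 15.5, a filter chosen after the data were seen, Cldn5 passed through the endothelial libraries alone and Ocln through the macrophage libraries alone. Both had to differ to be tested there, so these values are descriptions.

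The remaining comparisons set each fraction against whole Dox islets, and the labels do not say that a fraction came from the islets of these libraries. These comparisons share the Dox islet libraries with each other and with the islet comparison, so they are not independent of it. In endothelial cells 7 of 9 tested genes were higher than in Dox islets, Ocln was lower and F11r did not pass, where 31.5% of 10218 genes were called, 13.9% higher and 17.5% lower. All but F11r of these 9 had groups that did not overlap, which held for 48.3% of all genes tested. Quantile normalization moved the 1425 higher and 1789 lower calls over all genes to 2075 and 1704, and the median log2 difference over all genes to 0.21 from 0.08. The log2 difference was 1.68 for Plvap (SE 0.36, adjusted p = 0.00859), 1.54 for Cdh5 (SE 0.21, adjusted p = 0.000813), 1.36 for the sort antigen Pecam1 (SE 0.21, adjusted p = 0.00154) and 1.15 for Esam (SE 0.26, adjusted p = 0.0107), beside a median of 1.34 over the 14 endothelial markers, of which 13 were higher. The other genes had smaller values, with Jam2 at 0.91 (SE 0.24, adjusted p = 0.0203), Jam3 at 0.79 (SE 0.22, adjusted p = 0.0269), Tjp1 at 0.70 (SE 0.22, adjusted p = 0.0473) and F11r at 0.19 (SE 0.34, adjusted p = 0.697). Ocln averaged 4.0 ± 0.97 in endothelial cells and 343 ± 139 in Dox islets, a log2 difference of -6.02 (SE 0.51, adjusted p = 7.59e-05), and it passed the filter through the islet libraries alone. Cldn5 averaged 176 ± 9.46 in endothelial cells and 78.7 ± 31.7 in Dox islets, and its log2 difference of 1.25 had an adjusted p of 0.0439 with the filter at 15.5 and 0.10 with no filter. Leaving out endothelial replicate 1 left 4 genes called, and leaving out endothelial replicate 2 or 3 left 5. Tjp1 and Jam3 kept their calls in 9 of 16 alternative settings.

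In macrophages all 9 tested genes were lower than in Dox islets, where 56.0% of 10723 genes were called, 24.7% higher and 31.3% lower. The groups did not overlap for any of the 9, which held for 63.7% of all genes tested. Plvap, Esam, Ocln and Jam2 passed the filter through the islet libraries alone. Jam2 differed by -6.16 (SE 0.27, adjusted p = 9.15e-07), Plvap by -6.12 (SE 0.59, adjusted p = 2.91e-05), Cdh5 by -5.99 (SE 0.27), Tjp1 by -5.87 (SE 0.26), Esam by -5.17 (SE 0.35) and Pecam1 by -5.00 (SE 0.20). Ocln differed by -2.38 (SE 0.52, adjusted p = 0.00376), Jam3 by -2.24 (SE 0.26, adjusted p = 8.45e-05) and F11r by -0.91 (SE 0.33, adjusted p = 0.0430). The F11r call was lost in 8 of 16 alternative settings (adjusted p 0.00141 to 0.162), among them leaving out Dox islet replicate 2 (-0.56, adjusted p = 0.122), Dox islet replicate 3 or any macrophage replicate. Cldn5 averaged 3.17 ± 2.60 in macrophages and 78.7 ± 31.7 in Dox islets, a log2 difference of -4.35. Its limma adjusted p was 0.000550 with the filter at 15.5, which it passed through the islet libraries alone, and 0.00860 with no filter.

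Other genes of these structures were described from lists of caveola, adherens junction, tight junction and connexin genes. Of the caveola genes 7 of 9 tested rose in islets with Dox, with a median log2 difference of 1.89, beside 6.20% of all genes tested. Summed mural signal was also higher in Dox islets, as given above, and the part of each cell type in the caveola values was not tested. Prkcdbp, which encodes cavin-3, differed by 2.27 (SE 0.35, limma adjusted p = 0.0112) and Ehd2, an ATPase of the caveolar neck, by 2.22 (SE 0.30, adjusted p = 0.0112), with averages of 13511 ± 3054 in Dox islets and 2873 ± 500.4 in No Dox islets for Ehd2. Cav1 differed by 1.98 (SE 0.42, adjusted p = 0.0252), while Sdpr, or cavin-2, stood at 0.80 (adjusted p = 0.533) and Dnm2, or dynamin-2, at 0.23 (adjusted p = 0.759). Without the 2 libraries that followed GC content 6 of 9 were called, and without Dox replicate 2 limma called 0 of 9, with 7 at an unadjusted p under 0.05 and a median of 1.74. Leaving out Dox replicate 3, No Dox replicate 1 or No Dox replicate 3 gave counts of 2, 3 and 4. Of the 10 caveola genes Mfsd2a, a lipid transporter that limits caveolae in brain endothelium, was under the filter with 2.78 ± 1.81 in Dox islets and 8.34 ± 4.75 in No Dox islets.

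For adherens and tight junction partners the islet counts stand beside a background of 8.46% of all genes tested. Of 11 tested adherens junction partners 1 fell and 10 did not pass, with a median log2 difference of 0.89. Cdh1, which encodes E-cadherin, averaged 2647 ± 356 in Dox islets and 6250.2 ± 1831 in No Dox islets (log2 difference -1.20, SE 0.31, limma adjusted p = 0.0460), a call kept in 5 of 18 alternative settings. Of 13 tested tight junction scaffolds and membrane partners 1 rose and 2 fell, with a median of -0.88. Cgnl1, which encodes paracingulin, rose by 1.32 (SE 0.30, adjusted p = 0.0313), while Cgn, which encodes cingulin, differed by -2.06 (SE 0.38, adjusted p = 0.0163) and Inadl, which encodes the scaffold PATJ, by -1.52 (SE 0.36, adjusted p = 0.0357). Cgn passed the filter through the No Dox libraries alone and had to differ to be tested. The Cgnl1 call was kept in 8 and the Inadl call in 9 of 18 alternative settings. Of the 13 genes limma called 0 without Dox replicate 2 or without Dox replicate 3, with 7 at an unadjusted p under 0.05 in each, and 1 (lower) without Dox replicate 1 or No Dox replicate 2. In endothelial cells Cgnl1 averaged 3086 ± 136 while Cgn averaged 6.04 ± 7.84. Of 3 tested claudins other than Cldn5 (Cldn4, Cldn12 and Cldn15), 0 were called by limma and 0 had an unadjusted p under 0.05.

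**Figure D5:**
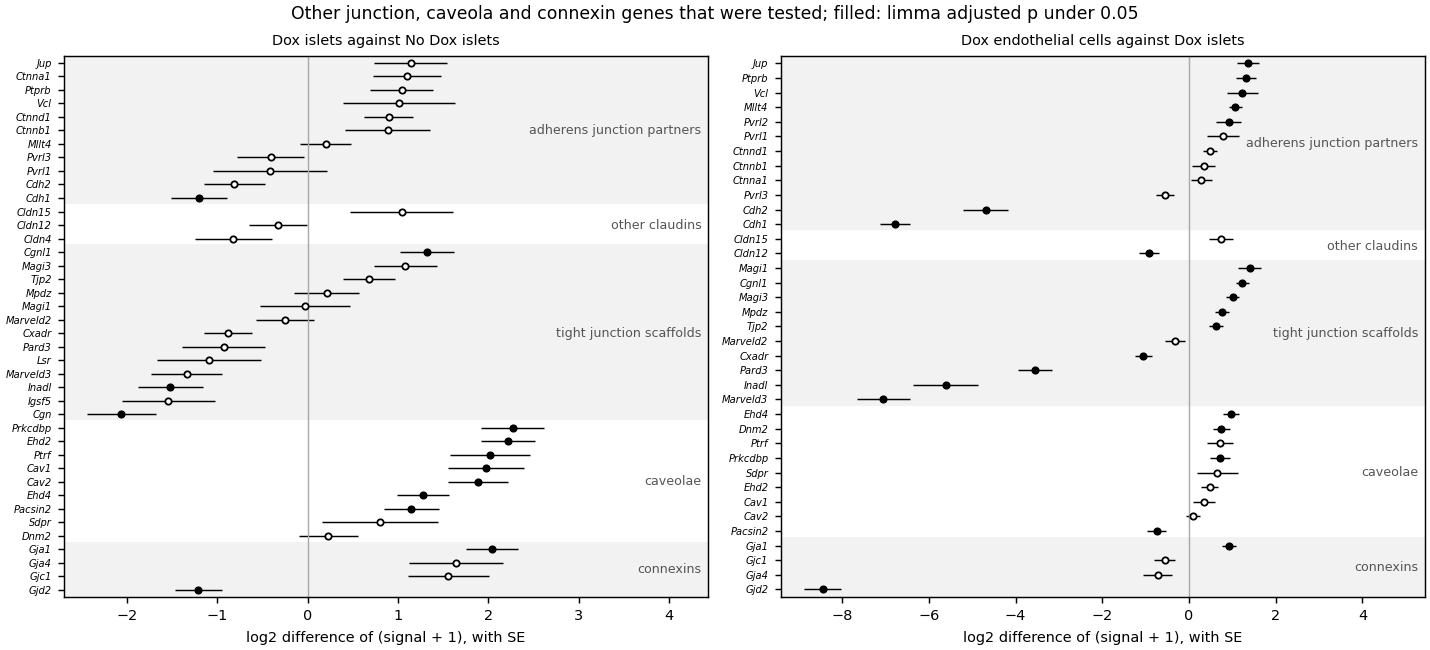
Log2 difference of (signal + 1) with its standard error for the tested adherens junction, claudin, tight junction, caveola and connexin genes, in Dox islets against No Dox islets (left) and in endothelial cells against Dox islets (right). Filled points passed the limma test at an adjusted p of 0.05. The caveola block holds 7 filled points right of 0 in the islet panel, and Cgn and Gjd2 are at -2.06 and -1.21 there.

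Connexins form gap junctions. In islets 1 of 4 tested rose and 1 fell, beside 6.20% of all genes tested that rose and 2.25% that fell. Gja1, which encodes connexin-43, averaged 2779 ± 348 in Dox islets and 684 ± 153 in No Dox islets (log2 difference 2.04, SE 0.29, limma adjusted p = 0.0112). Gjd2, which encodes connexin-36 of beta cells, averaged 1731 ± 116 in Dox islets and 4026 ± 509 in No Dox islets (-1.21, SE 0.26, adjusted p = 0.0269), a call kept in 8 of 18 alternative settings. Against Dox islets, endothelial cells had more Gja1 (0.92, SE 0.16, adjusted p = 0.00307) and less Gjd2 (-8.45, SE 0.43, adjusted p = 1.12e-05). Gjd2 averaged 4.35 ± 2.57 in endothelial cells and passed the filter through the islet libraries alone, so its test is a description. In islets limma called 0 of the 4 without Dox replicate 2, with 4 at an unadjusted p under 0.05, and without Dox replicate 1, Dox replicate 3 or No Dox replicate 3 it called 1, which was higher.

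In endothelial cells against Dox islets, 31.5% of all genes tested were called, 13.9% higher and 17.5% lower. Of 12 adherens junction partners 5 were higher and 2 lower, led by Cdh1 (-6.78, SE 0.34) and Cdh2, or N-cadherin (-4.69, SE 0.51). Among the tight junction list 5 of 10 were higher and 4 lower, with Marveld3 (-7.05, SE 0.61) and Inadl (-5.61, SE 0.75) the largest. Of these, Cdh1, Marveld3 and Inadl passed the filter through the islet libraries alone and had to differ to be tested. Among caveola genes 3 of 9 were higher, Ehd4 (0.97, SE 0.19), Dnm2 (0.75, SE 0.20) and Prkcdbp (0.71, SE 0.23), and Pacsin2 was lower (-0.74, SE 0.22). The other 5 did not pass the limma test: Ptrf (0.71, adjusted p = 0.111), Sdpr (0.65, adjusted p = 0.315), Ehd2 (0.48, adjusted p = 0.105), Cav1 (0.35, adjusted p = 0.324) and Cav2 (0.09, adjusted p = 0.717). The Prkcdbp difference changed sign, to -0.08, when the GC trend of each library was removed. Without any 1 of the endothelial replicates, or without Dox islet replicate 3, 1 caveola gene was higher and 0 were lower by limma, with 3 or 4 of 9 at an unadjusted p under 0.05. Dnm2 and Pacsin2 kept their calls in 8 of 16 alternative settings and Prkcdbp in 7, while Ehd4 kept its call in 16. Cldn12 was the 1 claudin called of 2 tested (-0.93, SE 0.23, adjusted p = 0.0173), a call kept in 12 of 16 alternative settings and lost without any 1 of the endothelial replicates or Dox islet replicate 3.

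Against macrophages, 36.0% of all genes tested were higher in endothelial cells and 29.4% lower. Endothelial cells had higher values of 9 of 11 tested adherens junction partners, 5 of 8 tight junction genes, 7 of 9 caveola genes, 3 of 3 connexins and 2 of 2 claudins. Of the 33 genes tested over these lists 11 passed the filter through 1 of the fractions alone and had to differ to be tested, so the counts are descriptions. The 2 largest calls of each list with more than 3 were Ptprb, or VE-PTP, the phosphatase that binds VE-cadherin (8.03, SE 0.21), and Pvrl3, or nectin-3 (5.81, SE 0.38), of the adherens junction, Sdpr (7.70, SE 0.25) and Cav1 (6.91, SE 0.19) of the caveolae, level with Prkcdbp (6.91, SE 0.23), and Cgnl1 (5.59, SE 0.54) and Mpdz (5.55, SE 0.42) of the tight junction. Gja1 differed by 6.66 (SE 0.41), Gjc1 by 4.59 (SE 0.69), Gja4 by 4.01 (SE 0.41), Cldn12 by 3.69 (SE 0.30) and Cldn15 by 3.22 (SE 0.37). A few junction genes were lower in endothelial cells than in macrophages: Cdh1 (-4.25, SE 0.45), Pvrl1, or nectin-1 (-2.23, SE 0.17), Marveld2, or tricellulin (-2.65, SE 0.22), and Pacsin2 (-1.46, SE 0.16). Pvrl1, Marveld2 and Pacsin2 were also the genes of these lists that were higher in macrophages than in Dox islets, by 3.02 (SE 0.36), 2.32 (SE 0.24) and 0.72 (SE 0.24), and all of these sets share libraries. In macrophages against Dox islets the 2 largest falls of each list were in Ptprb (-6.73, SE 0.28) and Pvrl3 (-6.37, SE 0.43), Marveld3 (-7.14, SE 0.87) and Mpdz (-4.79, SE 0.45), Sdpr (-7.05, SE 0.54) and Cav1 (-6.56, SE 0.30), and Gjd2 (-6.30, SE 0.44) and Gja1 (-5.73, SE 0.46). Over all genes tested 31.3% were lower in macrophages than in Dox islets and 24.7% higher. Lower values were called in 10 of 11 adherens junction partners, 9 of 11 tight junction genes, 7 of 9 caveola genes, 4 of 4 connexins and 2 of 2 claudins (Cldn12 at -4.62, SE 0.39, and Cldn15 at -2.48, SE 0.50). Of the 37 genes tested there, 12 passed the filter through the islet libraries alone.

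Cldn5 did not have the highest signal per kilobase among the listed claudins in the sorted endothelial cells. GC content is 60.5% for Cldn5, 54.1% for Cldn15 and 44.4% for Cldn12, and its part in their levels was not tested. Per kilobase of exon, Cldn15 averaged 193 ± 23.5, Cldn12 125 ± 12.3 and Cldn5 124 ± 6.69 (signal per kb, SD, n = 3), and the other 10 claudins in the list averaged at most 3.34 (Cldn4). The Cldn12 and Cldn5 values overlapped and the Cldn15 values, 168 to 215, lay above both. In Dox islets Cldn12 averaged 242 ± 53.6, Cldn15 117 ± 27.7 and Cldn5 55.6 ± 22.4, and in No Dox islets Cldn12 averaged 305 ± 74.5, Cldn15 63.6 ± 34.2 and Cldn5 3.20 ± 1.12. Of the listed claudins Cldn1 had the highest mean in macrophage libraries, 109 ± 61.8 (53.7 to 176), against 0.63 ± 0.33 in endothelial cells. The macrophage libraries also held 0.00615 to 1.73% of signal in 8 acinar markers, whose part in the Cldn1 values was not tested.

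The genes most like each member were taken as those with the smallest root mean square difference between log2 profiles, each gene's own mean removed, over the 12 libraries and 4432 genes with a mean signal of at least 1254. The libraries share their normalization and the GC trends above, and the measure carries no test. Cdh5 was most like Myct1 (0.24), Flt4 (0.29) and Mmrn2 (0.29), and Plvap most like Slc9a3r2 (0.44), Slco2a1 (0.46) and Tie1 (0.48). Tjp1 and Jam2 were each other's nearest gene (0.26), ahead of Mtap1a (0.32) and Myo6 (0.35) for Tjp1 and of Clic5 (0.27) and Gpr116 (0.30) for Jam2. Cldn5 had no gene nearer than Tnfsf18 (0.61), Ppic (0.62) and Adam12 (0.64), and Ocln none nearer than Cdh1 (0.69), Ero1lb (0.71) and Sgms2 (0.72). F11r was most like Vamp3 (0.25), Ywhab (0.26) and Tmod3 (0.26), and Jam3 most like Gne (0.30), 2900026A02Rik (0.30) and Syne2 (0.31). These distances compare with root mean squares of 0.75 for the F11r profile itself and 1.15 for Jam3, against 2.45 to 2.98 for the other 6 genes.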

How the data were processed

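RNA from whole islets or sorted islet cells was amplified with a NuGEN Ovation kit and sequenced on a HiSeq2500, per the labels' protocols. The authors deposited 1 table of normalized signal per gene and library. The submitters' processing notes list TopHat2 2.0 and mm9 and give neither a role. The normalization method, the counting program, its use of strand and its gene models were not given in the sources used here. Signal values were deposited on a linear scale with a floor of 1. Low values lay on whole multiples of a library's own step (99.9 to 100.0% of values under 8, tolerance 0.1 step), but 50.7 to 72.2% of them were multiples of 50 steps, so whole reads were not recovered, depth is unknown and no count model was used.

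Values were taken as log2(signal + 1), which understates changes of low genes. Each comparison was fitted with limma 3.58.1 in R 4.3.3 to its 6 libraries with a variance trend, over genes with a signal of at least 182.4 (the 40th percentile of values above the floor) in at least 3 libraries. P-values were adjusted by Benjamini-Hochberg over all genes tested. The fit was also run on simulated data with independent noise for each gene. Those data held no GC trend, so the run cannot show how the fit behaves on libraries with such a trend. The 10 genes, the lists and the tests were chosen with earlier results of these data known. Named genes were the 10, the 3 nearest profiles of 8 of them, and from each list the 2 largest calls and every call of a count of 3 or fewer; Cav1, Sdpr, Dnm2 and Mfsd2a in islets, Cgn and Cgnl1 in endothelial cells and the other claudins' levels were named after their values were seen. Gene positions in the table were the same in GENCODE M1 for 22382 of 22742 matched IDs, and exon lengths and GC content came from that annotation. Deviations of same-numbered endothelial and macrophage libraries correlated at 0.23, 0.47 and 0.42, and those of differently numbered ones between -0.39 and 0.03. With 3 libraries a group these values cannot settle whether the libraries are paired, and the labels do not state a pairing. Alternatives were another pseudocount, filter, scaling, variance model or set of libraries, and the replicate number as a block; 3 of them (a filter at 15.5, removal of the GC trend, and leaving out both first islet replicates, whose identifiers in the table belong to another run of numbers) were chosen after the data were seen.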

Additional observations from a re-analysis of the deposited data

How the results depend on the processing

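In islets the 3 calls became 0 with no filter (6 of 10 genes at an unadjusted p under 0.05) and 0 without both first replicates (6 of 9), and leaving out single replicates gave 0 to 3. In endothelial cells against Dox islets the 8 calls became 3 with no filter, and leaving out single replicates gave 4 to 8. Leaving out single replicates gave 8 to 8 in endothelial cells against macrophages and 8 to 9 in macrophages against Dox islets. Across the other alternatives these counts were 8 to 10 in both, with 10 at the filter of 15.5, under which all 10 genes were tested. At that filter Cldn5 passed through 1 group alone in both comparisons, and Ocln did so between the fractions. Among the 10 genes F11r changed sign in endothelial cells against Dox islets, to -0.18, without Dox islets replicate 1 (-0.18 to 0.54 when single replicates were left out), and among called list genes Prkcdbp did in the same comparison, to -0.08, with the GC trend removed. Of list and endothelial marker genes that did not pass, Erg, Pvrl1, Cxadr, Pard3, Magi1, Mpdz and Lsr each changed sign in 1 comparison under 1 to 3 alternatives. The level relative to endothelial markers changed sign for Plvap, to -0.06 without Dox islets replicate 1 and -0.03 without No Dox islets replicate 1, and for Pecam1, to -0.01 without Dox islets replicate 2 and -0.12 without No Dox islets replicate 2 (ranges -0.06 to 0.63 and -0.12 to 0.43). It ranged between 0.17 and 0.44 for Cdh5, 1.91 and 2.56 for Cldn5 and -0.69 and -0.22 for Esam when single replicates were left out. The causes were not tested.

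With the replicate number as a block the calls numbered 3 in islets, 8 between the fractions, 9 in macrophages against Dox islets and 8 in endothelial cells against Dox islets, as without it, and the block changed no call of the 10 genes between the fractions. In islets same-numbered deviations correlated at -0.24, -0.64 and 0.21, which gives no sign of a pairing by number there. The block there gave 629 calls over all genes against 867.

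Over all genes, the 867 islet calls became 97 with no filter, 1511 with all 12 libraries in 1 fit, 1596 with the GC trend removed (925 higher and 671 lower), 386 without both first replicates and 365 without the 2 libraries that followed GC content, and 5 to 735 when single replicates were left out. In endothelial cells against Dox islets 3214 calls (1425 higher and 1789 lower) became 2112 to 6187 when single replicates were left out, and quantile normalization gave 2075 higher and 1704 lower. With 3 libraries a group and unknown depth, the islet differences of F11r, Esam, Jam2 and Jam3 did not pass the adjusted test, and their groups overlapped. Their unadjusted limma p-values were 0.0105, 0.0204, 0.0704 and 0.0568.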
